A study of Mus musculus with 8 samples.

Results

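The caveolins, the cavins and the proteins bound at the neck and coat of caveolae were examined as a set of 10 genes (Cav1, Cav2, Cav3, Cavin1, Cavin2, Cavin3, Cavin4, Ehd2, Ehd4 and Pacsin3) out of 33249 genes measured in mouse myocardium. They were selected by gene name, from a list drawn up with earlier results of these data known, so the calls below describe these genes and are not independent evidence about caveolae. All 10 were found in the gene table, and all 10 passed the filter on low values (a mean of at least 0.5 FPKM, the deposited level scaled to transcript length and library size). Poly(A) RNA of 8 libraries was sequenced, with 2 libraries per group. The groups were labelled fl/fl-Sham and CKO-Sham for sham surgery and fl/fl-MI and CKO-MI for infarction. All mice carried Piezo1 alleles flanked by loxP sites (Piezo1tm2.1Apat). The CKO mice also carried a Cre recombinase fused to a mutant estrogen receptor, which is driven by the Myh6 promoter and acts in cardiomyocytes once tamoxifen is given, whereas the fl/fl mice were littermates lacking that transgene. Other cell types of CKO hearts therefore kept Piezo1. Tamoxifen was given at 4 weeks of age for 5 days, and surgery followed at 8 weeks. The sources do not say clearly whether the fl/fl mice received tamoxifen. Myocardial infarction (MI) was made by tying off the left anterior descending artery for good, sham mice had the surgery without ligation, and MI hearts were taken at day 42. The labels do not say which zone of the infarcted heart was used, or whether replicates 1 and 2 were different animals, so the p-values measure only the spread between these samples.

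Caveolae are small flask-shaped pits of the plasma membrane that are plentiful in endothelial cells, adipocytes and muscle. Caveolins are hairpin-shaped membrane proteins that oligomerize in the pit, and cavins form a coat on its cytosolic face. EHD2, an ATPase, sits at the neck and limits the mobility of the pit, and PACSIN proteins bend membrane with their F-BAR domain. Caveolae flatten when the membrane is stretched, and Cav3 and Cavin4 are the family members typical of striated muscle.

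Sequences are shown for the 4 genes on which the results turn, since Cav1 and Cav2 had the largest falls after MI and Cavin4 and Ehd4 were the members called higher. Each is the stretch before an annotated start site (RefSeq, GRCm38.p6, 5′ to 3′ on the strand of the gene), and capitals mark a TATA box (TATAAA) or a GC box (GGGCGG) on either strand. Cav1 has a start site ahead of its first exon and another in its first intron, and both stretches are given.
Cav1, chr6:17306085-17306334, plus strand: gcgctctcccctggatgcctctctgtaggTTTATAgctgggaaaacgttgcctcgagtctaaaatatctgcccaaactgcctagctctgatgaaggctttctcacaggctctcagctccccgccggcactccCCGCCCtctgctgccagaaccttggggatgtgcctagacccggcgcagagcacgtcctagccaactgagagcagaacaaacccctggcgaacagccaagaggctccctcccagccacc
Cav1 internal start, chr6:17307390-17307639, plus strand: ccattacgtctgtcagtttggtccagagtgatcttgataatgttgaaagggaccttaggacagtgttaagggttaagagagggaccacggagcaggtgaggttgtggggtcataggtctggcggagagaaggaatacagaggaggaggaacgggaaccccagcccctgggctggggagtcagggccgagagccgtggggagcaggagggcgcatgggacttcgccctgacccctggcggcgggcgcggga
Cav2, chr6:17280935-17281184, plus strand: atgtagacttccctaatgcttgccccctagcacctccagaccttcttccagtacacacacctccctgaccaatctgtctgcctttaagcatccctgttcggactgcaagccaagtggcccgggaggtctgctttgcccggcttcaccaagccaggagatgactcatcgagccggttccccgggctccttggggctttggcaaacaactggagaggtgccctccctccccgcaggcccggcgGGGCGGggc
Cavin4, chr4:48663264-48663513, plus strand: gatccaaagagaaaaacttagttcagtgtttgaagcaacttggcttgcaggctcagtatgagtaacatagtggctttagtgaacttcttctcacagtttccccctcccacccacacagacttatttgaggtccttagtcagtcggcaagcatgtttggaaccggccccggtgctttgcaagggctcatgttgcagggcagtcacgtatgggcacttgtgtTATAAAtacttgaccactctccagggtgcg
Ehd4, chr2:120154607-120154825, minus strand: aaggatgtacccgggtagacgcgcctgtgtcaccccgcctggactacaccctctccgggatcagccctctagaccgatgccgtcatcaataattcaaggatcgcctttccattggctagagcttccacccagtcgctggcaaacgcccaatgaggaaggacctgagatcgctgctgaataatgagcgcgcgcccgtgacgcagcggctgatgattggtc
The window searched was the 250 bases before a start, and the 31 bases of the Ehd4 window that lie in an annotated exon are not printed. Cavin4 held a TATA box 30 bases before its start. Ehd4 had no TATA box, held a GC box 20 bases before its start in the unprinted bases, and had 21 CpG dinucleotides against a median of 6 in all windows. Cav1 held a GC box 118 bases before its main start and Cav2 one 9 bases before its start, while the internal Cav1 start had neither motif. A window was found for 9 of the 10 members (12 windows), of which 2 members held a TATA box and 6 a GC box. The TATA box of Cav1 lay 221 bases before its main start, on the opposite strand. A member with several windows was counted if any held the motif, whereas the percentages that follow are of single windows. Of all 32851 windows of this length, 12.4% held TATAAA and 32.7% held GGGCGG on either strand. The TEAD motif (GGAATG) was found in 2 members and in 12.6% of all windows, and the E-box (CANNTG) in 6 members and in 66.2% of all windows. These are matches of letters and not sites of binding.

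The libraries held between 73821747 and 88117573 deposited counts, at about 4 counts per read pair. Piezo1, the targeted gene, lay between 53.5 and 88.3 CPM (counts scaled to the normalized library size) in all libraries and was not lower in those labelled CKO. The library labelled fl/fl-MI 2 stood apart from its group. It had 331 CPM of Esr1, the estrogen receptor gene whose ligand-binding part the transgene carries, where the library labelled fl/fl-MI 1 had 7.75 CPM and those labelled CKO-MI had 707 and 402 CPM. After sham surgery Esr1 was at 5.52 and 7.60 CPM in the libraries labelled CKO-Sham and at 8.36 and 6.41 CPM in those labelled fl/fl-Sham. Neither Esr1 nor Piezo1 therefore set the libraries labelled CKO-Sham apart from those labelled fl/fl-Sham, so the genotype of the sham libraries rests on the labels alone. Bmp10, an atrial gene, was at 3834 CPM in fl/fl-MI 2, against at most 18.8 CPM elsewhere. The change of each member over both genotypes is therefore given without this library as well. Mitochondrially encoded genes took 43.1% to 46.4% of counts after sham surgery and 19.9% to 24.2% after MI, so the scaling of the libraries matters. The median log2 change of all 14028 genes tested after MI was 0.03 on TMM-scaled counts, 0.41 on log2(FPKM + 1) and 0.92 on log2(TPM + 1).

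**Figure D1:**
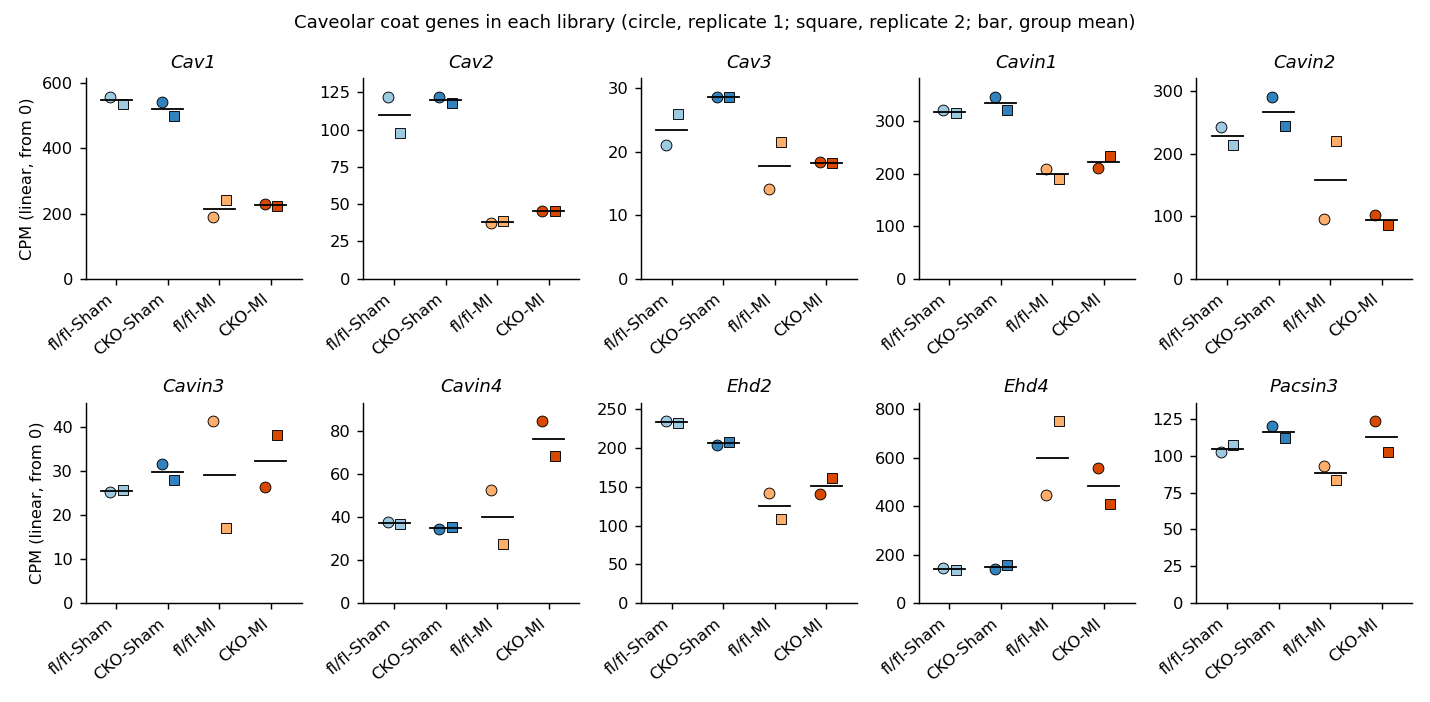
CPM (linear axes) of the 10 genes in each of the 8 libraries by group, where circles are replicate 1, squares are replicate 2 and bars are group means. On this scale Cav1, Cav2, Cavin1 and Ehd2 were lower in all 4 MI libraries than in all 4 sham libraries and Ehd4 was higher, while on log2(TPM + 1) the mean changes of Cavin1 and Ehd2 reversed.

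Compared per length, Cav1 was the most abundant member in sham myocardium at 123 ± 6.81 FPKM (SD, n = 4), and no sham library of another member reached its range. Cavin1 (72.1 ± 3.87) and Cavin2 (64.4 ± 8.25) followed with overlapping ranges. Ehd2 (34.2 ± 2.76) stood apart from its neighbours, whereas Ehd4 (29 ± 1.40) and Cav2 (27.3 ± 2.25) overlapped. Pacsin3 (20.3 ± 1.68), Cav3 (17.9 ± 2.70), Cavin4 (14.0 ± 0.645) and Cavin3 (13.2 ± 1.49) had the lowest levels, and each overlapped the next. After MI the order changed. Ehd4 was at the top with 157 ± 32.8 FPKM (SD, n = 4), apart from Cav1 at 75.3 ± 4.95 FPKM. From Cav1 down, every member overlapped the next in order, and Cav2 was last with 14.8 ± 1.97 FPKM. Where the level of a gene differs in bulk myocardium, fewer cells of a type and less RNA per cell cannot be told apart.

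MI was compared with sham surgery over both genotypes, 4 libraries against 4, to ask how the caveolar genes stood in the remodelled heart. On TMM-scaled counts, 6 of the 10 members were called lower (Cav1, Cav2, Cav3, Cavin1, Cavin2 and Ehd2) and 2 were called higher (Ehd4 and Cavin4) at an adjusted p under 0.05. Of all genes tested, 18.3% were called lower and 22.0% higher. Calls were made with the quasi-likelihood test of edgeR with Benjamini-Hochberg adjustment over all 14028 genes. The members' median log2 change was -0.58 against 0.03 for all genes tested. DESeq2 called the same number of members (8), and 6486 of the 14028 genes in either direction. On log2(FPKM + 1), limma called 2 members lower and 3 higher, and 7864 of the 14028 genes in either direction. On log2(TPM + 1) limma called 0 members lower and 6 higher, and the share of all genes is not given here. All 4 MI libraries lay below all 4 sham libraries for 4 members, as for 19.5% of all genes, and above them for 1 member, as for 20.9% of all genes.

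**Figure D2:**
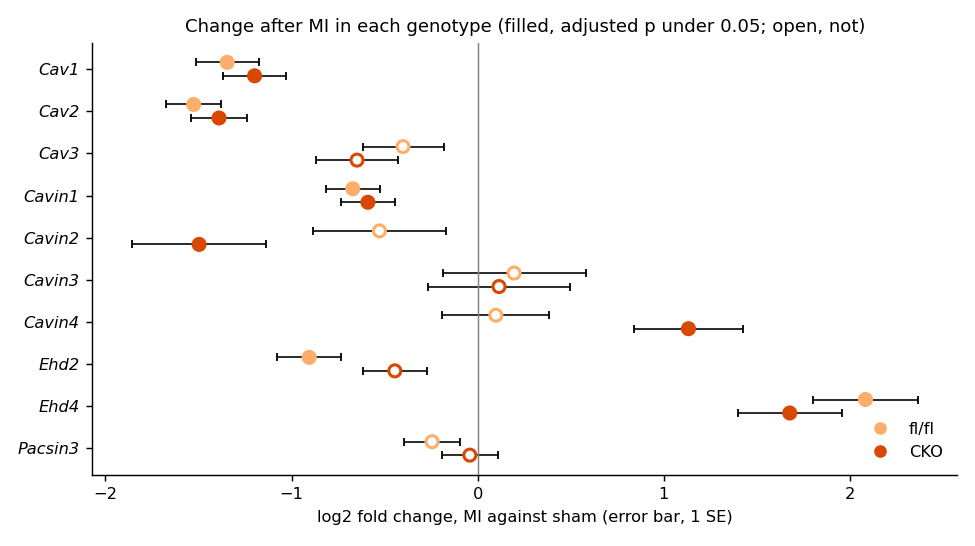
Log2 fold change (MI minus sham, edgeR on TMM-scaled counts) of each member in fl/fl and in CKO mice, with bars of 1 standard error. Cav1, Cav2, Cavin1 and Ehd4 passed the test in both genotypes, and Cavin4 and Cavin2 were farthest apart between genotypes.

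Cav1 (ENSMUSG00000007655, chromosome 6 from 17306335 to 17341324 of GRCm38) encodes the main caveolin of non-muscle cells. It had 559 and 536 CPM (fl/fl) and 544 and 499 CPM (CKO) after sham surgery, against 191 and 240.1 CPM (fl/fl) and 230.4 and 223 CPM (CKO) after MI. All MI libraries were low and all sham libraries were high, with no overlap. Cav1 fell 2.42-fold (log2 fold change -1.27, standard error 0.12, 95% interval -1.56 to -0.99, adjusted p = 0.000746 in edgeR). An exact two-sided permutation test of 4 against 4 libraries gave p = 0.0286, the smallest it can give. The same test gave that p for Cav2, Cavin1, Ehd2 and Ehd4. The change was -1.35 in fl/fl (standard error 0.17, adjusted p = 0.00591) and -1.20 in CKO (standard error 0.17, adjusted p = 0.00643). With fl/fl-MI 2 left out the change over both genotypes was -1.36. The call in fl/fl was lost when either library labelled fl/fl-Sham was left out, and that in CKO without CKO-Sham 1.

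Cav2 (ENSMUSG00000000058, chromosome 6 from 17281185 to 17289115 of GRCm38), which forms mixed oligomers with Cav1, lies 17219 bases from it. It had 122 and 97.7 CPM (fl/fl) and 122 and 118 CPM (CKO) after sham surgery, against 37.7 and 38.6 CPM (fl/fl) and 45.8 and 45.7 CPM (CKO) after MI. The groups did not overlap between MI and sham, and the MI libraries of either genotype lay close to each other. The fall of 2.75-fold was the largest among the members (log2 fold change -1.46, standard error 0.10, adjusted p = 0.00051 in edgeR). It was -1.47 with fl/fl-MI 2 left out. Within genotypes it was -1.53 in fl/fl and -1.39 in CKO (adjusted p = 0.0036 and adjusted p = 0.00416 in edgeR), and the call in CKO was lost without CKO-Sham 1. Within each library the ratio of Cav2 to Cav1 FPKM was 0.188 to 0.244 after sham surgery and 0.166 to 0.211 after MI, so the ranges overlapped.

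Cav3 (ENSMUSG00000062694, chromosome 6 from 112459505 to 112472872 of GRCm38), the caveolin of striated muscle and T-tubules, was less changed. It had 21 and 25.9 CPM (fl/fl) and 28.6 and 28.6 CPM (CKO) after sham surgery, against 14.0 and 21.4 CPM (fl/fl) and 18.3 and 18.2 CPM (CKO) after MI. The library labelled fl/fl-MI 2 lay above the lowest sham library, so MI and sham overlapped. The log2 fold change of -0.53 (standard error 0.15, adjusted p = 0.0322 in edgeR) reversed to 0.03 on log2(FPKM + 1) and 0.58 on log2(TPM + 1). The exact permutation test gave p = 0.0571 for Cav3. It was -0.40 in fl/fl (adjusted p = 0.228) and -0.65 in CKO (adjusted p = 0.0689), neither of which passed. The call over both genotypes was lost when any of the 4 libraries labelled Sham or either labelled CKO-MI was left out (adjusted p = 0.0557 to 0.12). With fl/fl-MI 2 left out the change was -0.69 over both genotypes (adjusted p = 0.00181) and -0.74 in fl/fl (adjusted p = 0.0174), and with fl/fl-MI 1 left out it was -0.15 in fl/fl. Leaving out either of these libraries also gave a call in CKO (adjusted p = 0.00748 and 0.00809). The ratio of Cav1 to Cav3 FPKM within a library was 5.85 to 8.96 after sham surgery and 3.76 to 4.57 after MI, without overlap.

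Cavin1 (ENSMUSG00000004044, chromosome 11 from 100956733 to 100970887 of GRCm38) encodes the coat protein required for caveolae to form. It had 319.9 and 314 CPM (fl/fl) and 346 and 321 CPM (CKO) after sham surgery, against 209 and 189 CPM (fl/fl) and 210.3 and 233 CPM (CKO) after MI. Every MI library was below every sham library. Cavin1 fell 1.55-fold (log2 fold change -0.63, standard error 0.10, adjusted p = 0.00412 in edgeR), with -0.67 in fl/fl (adjusted p = 0.0246) and -0.59 in CKO (adjusted p = 0.0283). Its direction reversed to 0.50 on log2(TPM + 1). The change over both genotypes was -0.60 with fl/fl-MI 2 left out. The call in CKO was lost when any library labelled Sham or CKO-MI was left out, and the call in fl/fl when any labelled Sham was. The ratio of Cav1 to Cavin1 FPKM within a library, which does not depend on scaling, was 1.62 to 1.82 after sham surgery and 0.950 to 1.32 after MI, without overlap.

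Cavin2 (ENSMUSG00000045954, chromosome 1 from 51289126 to 51302960 of GRCm38), which shapes the caveolar membrane, varied most in the fl/fl-MI group. It had 242 and 214 CPM (fl/fl) and 291 and 243 CPM (CKO) after sham surgery, against 96.2 and 220.3 CPM (fl/fl) and 103 and 86.6 CPM (CKO) after MI. The library labelled fl/fl-MI 2 was at the sham level, while the other 3 MI libraries were below all sham libraries. Over both genotypes it changed by -1.01 on the log2 scale (standard error 0.25, adjusted p = 0.0185 in edgeR), and 0.07 on log2(TPM + 1). The exact permutation test gave p = 0.0571 for Cavin2. It was -0.53 in fl/fl (standard error 0.36, adjusted p = 0.324) and -1.50 in CKO (standard error 0.36, adjusted p = 0.0267). With fl/fl-MI 2 left out it was -1.37 over both genotypes (adjusted p = 0.000217) and -1.25 in fl/fl (adjusted p = 0.00447). With fl/fl-MI 1 left out it was -0.79 and -0.08. The call in CKO was lost when any library labelled Sham or CKO-MI was left out. The call over both genotypes was lost without fl/fl-Sham 1, fl/fl-Sham 2, CKO-Sham 1 or CKO-MI 2 (adjusted p = 0.0645, 0.0549, 0.0684 and 0.0641).

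Cavin3 (ENSMUSG00000037060, chromosome 7 from 105480083 to 105482300 of GRCm38), which binds Cavin1 and Cav1 and links them to signalling proteins, did not pass the test. It had 25.3 and 25.7 CPM (fl/fl) and 31.6 and 28.0 CPM (CKO) after sham surgery, against 41.4 and 17.0 CPM (fl/fl) and 26.3 and 38.2 CPM (CKO) after MI. The fl/fl-MI libraries held both the highest and the lowest value of all. On the log2 scale it differed by 0.15 (standard error 0.27, adjusted p = 0.677 in edgeR), or 0.41 (adjusted p = 0.0441) with fl/fl-MI 2 left out and -0.25 (adjusted p = 0.17) with fl/fl-MI 1 left out.

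Cavin4 (ENSMUSG00000028348, chromosome 4 from 48663514 to 48673502 of GRCm38), the muscle cavin, was high in 3 of the 4 MI libraries. It had 37.8 and 36.8 CPM (fl/fl) and 34.4 and 35.3 CPM (CKO) after sham surgery, against 52.6 and 27.3 CPM (fl/fl) and 84.5 and 68.1 CPM (CKO) after MI. The library labelled fl/fl-MI 2 was below every sham library, so the groups overlapped. Over both genotypes it rose by 0.61 on the log2 scale (standard error 0.20, adjusted p = 0.0484 in edgeR), and an exact two-sided permutation test of 4 against 4 libraries gave p = 0.143. Cavin4 rose in CKO (1.13, standard error 0.29, adjusted p = 0.0316), and the change in fl/fl was 0.10 (standard error 0.29, adjusted p = 0.833). The call in CKO was lost when any library labelled Sham or CKO-MI was left out, with changes between 0.945 and 1.28. With fl/fl-MI 2 left out the values were 0.81 over both genotypes (adjusted p = 0.00067) and 0.49 in fl/fl (adjusted p = 0.051). With fl/fl-MI 1 left out they were 0.32 (adjusted p = 0.0406) and -0.48 (adjusted p = 0.0705). The call over both genotypes was lost when any library labelled Sham or CKO-MI was left out (adjusted p = 0.0743 to 0.151). The ratio of Cavin4 to Cavin1 FPKM was 0.173 to 0.207 in sham libraries and 0.252 to 0.702 in MI libraries, including that labelled fl/fl-MI 2. The ratio of Cavin4 to Cav3 FPKM was 0.677 to 1.02 in sham libraries and 0.716 (fl/fl-MI 2) to 2.60 in MI libraries, with overlap.

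Ehd2 (ENSMUSG00000074364, chromosome 7 from 15946958 to 15967567 of GRCm38) encodes the ATPase of the caveolar neck. It had 235 and 233 CPM (fl/fl) and 204 and 208 CPM (CKO) after sham surgery, against 142 and 108 CPM (fl/fl) and 141 and 161 CPM (CKO) after MI. All MI libraries were below all sham libraries. Ehd2 fell 1.6-fold (log2 fold change -0.68, standard error 0.12, adjusted p = 0.00572 in edgeR), a direction that reversed to 0.45 on log2(TPM + 1). The value was -0.58 without fl/fl-MI 2. The change passed in fl/fl (-0.91, adjusted p = 0.0164 in edgeR), and in CKO it was -0.45 (adjusted p = 0.0988). With each library left out in turn it was -1.14 to -0.72 in fl/fl and -0.54 to -0.38 in CKO. The call in fl/fl was lost when either library labelled fl/fl-Sham was left out. The difference between the changes in CKO and fl/fl was 0.46 (95% interval -0.11 to 1.03, adjusted p = 0.632 in edgeR), so they were not shown to differ.

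Ehd4 (ENSMUSG00000027293, chromosome 2 from 120089175 to 120154606 of GRCm38), a relative of EHD2 that acts in endosomal transport and can also associate with caveolae, had the largest change of all members. It had 147 and 137 CPM (fl/fl) and 143 and 159 CPM (CKO) after sham surgery, against 448 and 752 CPM (fl/fl) and 556 and 408 CPM (CKO) after MI. Every MI library was far above every sham library, and the library labelled fl/fl-MI 2 was the highest. Ehd4 rose 3.68-fold (log2 fold change 1.88, standard error 0.20, adjusted p = 0.00106 in edgeR), with 2.08 in fl/fl (adjusted p = 0.00704) and 1.68 in CKO (adjusted p = 0.00946). The change was 1.67 over both genotypes and 1.66 in fl/fl with fl/fl-MI 2 left out. The call in fl/fl was lost when either library labelled fl/fl-Sham was left out, and that in CKO when either labelled CKO-Sham was. The ratio of Ehd4 to Ehd2 FPKM within a library was 0.751 to 0.976 after sham surgery and 3.23 to 8.91 after MI.

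Pacsin3 (ENSMUSG00000027257, chromosome 2 from 91255954 to 91264679 of GRCm38) encodes an F-BAR protein of muscle that occurs at caveolae. It had 102 and 107 CPM (fl/fl) and 120.2 and 112 CPM (CKO) after sham surgery, against 93.0 and 83.5 CPM (fl/fl) and 124 and 102 CPM (CKO) after MI. The MI and sham libraries overlapped. On the log2 scale the difference was -0.14 (standard error 0.11, adjusted p = 0.308 in edgeR) on counts and 0.40 on log2(FPKM + 1), where limma called it higher. The difference on counts was -0.11 with fl/fl-MI 2 left out. Relative to Cavin1 the level of Pacsin3 was 0.264 to 0.290 after sham surgery and 0.364 to 0.487 after MI in FPKM, without overlap.

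**Figure D3:**
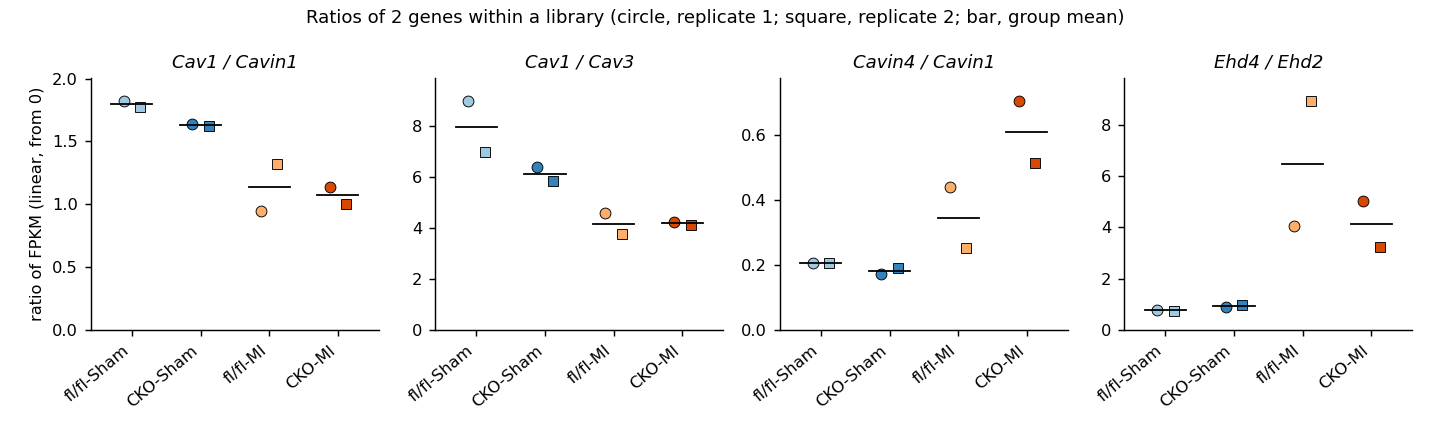
Ratios of the FPKM of gene pairs within each library (linear axes from 0) by group, with circles for replicate 1, squares for replicate 2 and bars for group means; such ratios do not depend on the scaling of the library. MI and sham ranges did not overlap for Cav1 to Cavin1, Cav1 to Cav3, Cavin4 to Cavin1 and Ehd4 to Ehd2. Pairs not drawn that overlapped were Cav2 to Cav1, Cavin4 to Cav3, and Cav3, Cavin2, Cavin3 and Ehd2 each to Cavin1.

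Since the scaling moved the median of all genes, each change was also set against that median. Relative to the median of all genes tested, the change of Cav1 was -1.31 on counts, -1.11 on log2(FPKM + 1) and -1.05 on log2(TPM + 1). For Cav2 these values were -1.49, -1.26 and -1.22. All 6 members called lower stayed below the median under these scalings, where Cav3 was nearest to it (-0.56, -0.38 and -0.33). Ehd4 was above it by 1.85, 1.96 and 2.04, and Cavin4 by 0.58, 0.68 and 0.75. Pacsin3 lay at -0.18, -0.01 and 0.05, and Cavin3 at 0.12, 0.20 and 0.26.

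**Figure D4:**
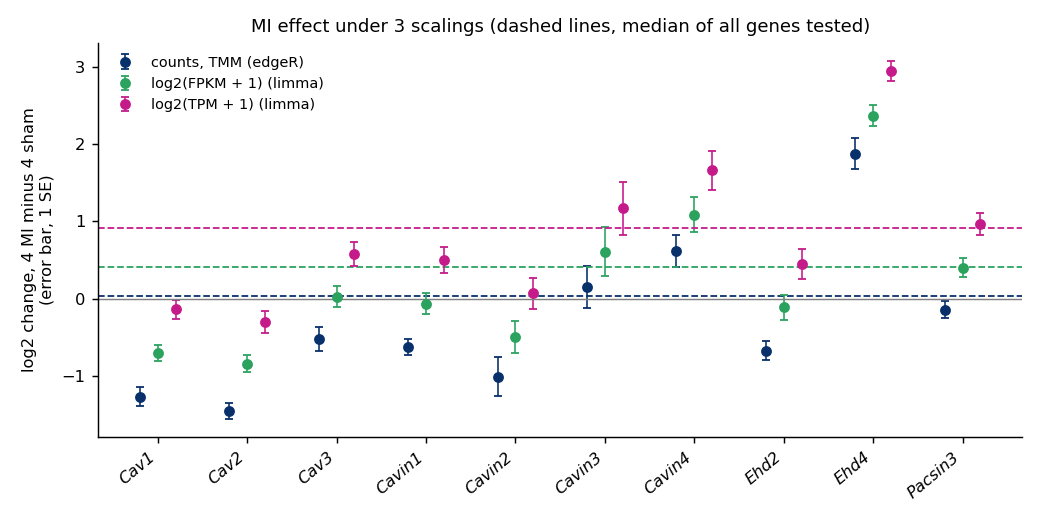
Log2 change over both genotypes (4 MI minus 4 sham libraries, bars of 1 standard error) on TMM-scaled counts, log2(FPKM + 1) and log2(TPM + 1), with the median of all genes tested as a dashed line for each. Cav1 and Cav2 were below 0 under all 3, Ehd4 and Cavin4 were above 0 under all 3, and Cav3, Cavin1, Cavin2, Ehd2 and Pacsin3 crossed 0 on log2(TPM + 1).

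MI was also compared with sham surgery within each genotype. These comparisons use separate libraries in 1 fit. In fl/fl, 4 members were called lower (8.45% of all genes) and 1 higher (10.1% of all genes). In CKO, 4 were called lower (11.9% of all genes) and 2 higher (12.8% of all genes). Cav1, Cav2 and Cavin1 were called lower in both. Ehd2 was called in fl/fl and Cavin2 in CKO, and neither passed the interaction test below. The members' median was -0.47 in fl/fl against 0.05 for all genes tested, and -0.52 in CKO against 0.01. These counts depended on single libraries. Leaving out fl/fl-Sham 1 or fl/fl-Sham 2 left 1 member called lower and 0 higher in fl/fl, where 0.770% and 0.727% of all genes were called lower. In CKO, leaving out CKO-Sham 1 left 0 in either direction (0.157% of all genes lower), and leaving out CKO-Sham 2 left 2 lower and 0 higher (2.84% and 2.25% of all genes). Leaving out fl/fl-Sham 1, fl/fl-Sham 2, CKO-MI 1 or CKO-MI 2 left 2 lower and 1 higher in CKO, where 4.06% to 6.54% of all genes were lower. Leaving out fl/fl-MI 2 gave 6 lower and 2 higher in fl/fl, while the shares of all genes rose to 13.7% lower and 15.8% higher. Leaving out either library labelled fl/fl-MI gave 6 lower and 2 higher in CKO, while 19.7% and 20.2% of all genes were called lower and 21.6% and 20.8% higher. The number of members called thus moved together with the share of all genes called.

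The genotypes were compared after MI and after sham surgery to ask whether the caveolar genes depended on cardiomyocyte Piezo1. The comparison after MI shares its libraries with the MI comparisons above. After MI no member (0) was called by edgeR, as for 0% of all genes, while 2 members and 1166 of all genes had an unadjusted p under 0.05. DESeq2 called 207 genes and limma on log2(FPKM + 1) called 0, and neither called a member. Both CKO-MI libraries lay above both fl/fl-MI libraries for Cavin4, with a log2 difference of 0.93 (standard error 0.29, 95% interval 0.25 to 1.62, adjusted p = 0.549 in edgeR). With fl/fl-MI 2 left out the difference was 0.54, and with fl/fl-MI 1 left out it was 1.5. Dropping fl/fl-MI 1 leaves fl/fl-MI 2, which stood apart in Esr1 and Bmp10, as the only fl/fl-MI library. Values without fl/fl-MI 1 therefore compare CKO-MI with that library alone. The difference of Pacsin3 was 0.36 (95% interval 0.00 to 0.71, adjusted p = 0.598 in edgeR), with both CKO-MI libraries above both fl/fl-MI libraries. The same order held for Cav2, with a difference of 0.26 (95% interval -0.08 to 0.61), and for Cavin1, with 0.15 (95% interval -0.19 to 0.50). The share of all genes with such an order was not determined. The difference of Cavin2 was -0.74 (95% interval -1.58 to 0.10, adjusted p = 0.638 in edgeR), which was -0.02 with fl/fl-MI 2 left out and -1.20 with fl/fl-MI 1 left out. For Cav1 the difference was 0.07, with an interval from -0.32 to 0.47, and for Cav3 it was 0.04, with an interval from -0.47 to 0.55. Both depended on a single library, with 0.25 for Cav1 and 0.38 for Cav3 without fl/fl-MI 2, and -0.07 and -0.22 without fl/fl-MI 1. The difference of Cavin3 was 0.14 (95% interval -0.76 to 1.05), or -0.36 without fl/fl-MI 2 and 0.94 without fl/fl-MI 1. With 2 libraries against 2, an exact permutation test has 0.333 as its smallest p.

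After sham surgery 0 members were called by edgeR, as against 0.00713% of all genes (1 gene). No member had an unadjusted p under 0.05, as 546 of all genes did, and neither DESeq2 (34 genes) nor limma on log2(FPKM + 1) (2 genes) called one. The differences between CKO-Sham and fl/fl-Sham ranged from -0.18 for Ehd2 (95% interval -0.59 to 0.22) to 0.29 for Cav3 (95% interval -0.22 to 0.80). For Cavin4 the difference was -0.10 (95% interval -0.78 to 0.58). As stated above, Esr1 and Piezo1 did not separate these libraries by label, which also bears on the interaction below.

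Whether MI acted differently in the genotypes was tested as an interaction. No member (0) was called by edgeR, as for 0% of all genes. At an unadjusted p under 0.05 there were 1 member, Cavin4, and 1191 of all genes, while DESeq2 called 131 genes and limma on log2(FPKM + 1) called 0, without a member among them. For Cavin4 the change after MI in CKO minus that in fl/fl was 1.03 (log2, 95% interval 0.07 to 2.0, adjusted p = 0.574 in edgeR). This value was 0.64 with fl/fl-MI 2 left out and 1.6 with fl/fl-MI 1 left out, where fl/fl-MI 2 alone stands for its group. For Cavin2 the interaction was -0.97 (95% interval -2.15 to 0.22, adjusted p = 0.627 in edgeR), or -0.25 and -1.43 without those libraries.

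Transcript estimates of the authors were examined for the members whose count was spread over several transcripts. Cav1 is made in a longer form of 178 codons and a shorter form of 147 codons that lacks the first 31 codons. The first 30 coding bases of each are given to show where they begin (GENCODE M21, GRCm38, plus strand), with the start codon in capitals.
Longer form, chr6:17306450-17306479: ATGtctgggggcaaatacgtagactccgag
Shorter form, chr6:17307944-17307973: ATGgcagacgaggtgactgagaagcaagtg
The start codon of the shorter form lies in the second coding exon of the longer form. The longer form (2 transcripts summed) had 140 and 143 FPKM (fl/fl) and 156 and 122 FPKM (CKO) after sham surgery, against 86.4 and 43.3 FPKM (fl/fl) and 91.5 and 97.6 FPKM (CKO) after MI. All MI libraries were below all sham libraries. The shorter form (2 transcripts summed) had 31.3 and 31.9 FPKM (fl/fl) and 17.3 and 31.9 FPKM (CKO) after sham surgery, against 10.2 and 60.9 FPKM (fl/fl) and 7.99 and 15.3 FPKM (CKO) after MI. The library labelled fl/fl-MI 2 was the highest of all, and the other 3 MI libraries were below all sham libraries. In that library the shorter form took 63.0% of the counts of both forms (95% Wilson interval 61.6% to 64.3%), against 8.70% to 22.4% in the other 7. The interval takes 4 counts as 1 read pair and covers counting error only, and the forms share most of their exons, so the split is an estimate. The summed count of Cav1 in fl/fl-MI 2 was 240.1 CPM, the highest of the MI libraries, which began at 191 CPM.

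**Figure D5:**
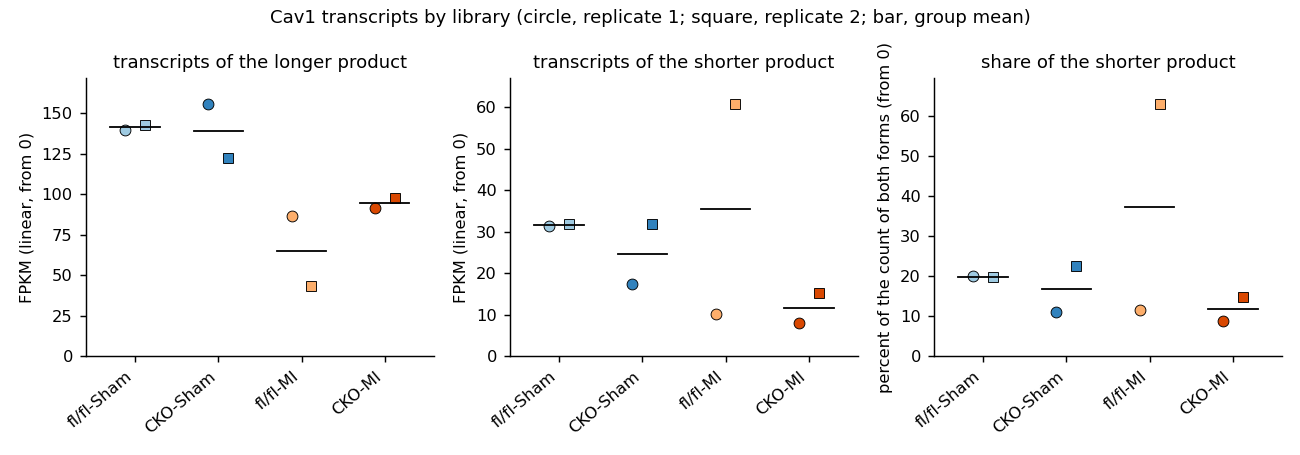
FPKM of the longer and the shorter Cav1 form and the share of the shorter form in percent of the counts of both (linear axes from 0) by group, with circles for replicate 1, squares for replicate 2 and bars for group means. The library labelled fl/fl-MI 2 stood apart, with 63.0% of counts in the shorter form against at most 22.4% elsewhere.

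Pacsin3, with 15 annotated transcripts, was the other member whose count was spread over several of them. Its main transcript, ENSMUST00000028694, held 55.2% to 74.7% of the gene's count after sham surgery and 43.8% to 58.3% after MI. In the annotation ENSMUST00000168916, ENSMUST00000059566 and ENSMUST00000111349 encode the same 424 codons as the main transcript. Shifts of share among these transcripts therefore do not change the encoded product. The transcript ENSMUST00000138470, which has an alternative first exon and an incomplete 3′ end in the annotation, had 1.43 to 2.17 FPKM in sham libraries and 8.58 to 15.4 FPKM in MI libraries. Its share of the count was 0.997% to 1.85% after sham surgery and 4.30% to 9.14% after MI, without overlap. The share of ENSMUST00000059566 was also higher after MI, at 6.81% to 14.9% against 2.50% to 6.71% after sham surgery. That of ENSMUST00000143883 was lower, at 0.766% to 1.65% after MI against 2.35% to 3.03%. The shares of these minor transcripts separated MI from sham libraries while the count of the gene did not. Other shares overlapped, as for the main transcript and ENSMUST00000168916 (14.3% to 27.4% after sham surgery and 14.9% to 30.1% after MI). That of ENSMUST00000111349 overlapped too (0.220% to 6.36% and 1.19% to 4.10%). How often shares separate over the transcripts of all genes was not determined. No test was made on transcripts. The other 8 members had 1 transcript in the table (4 members) or a main transcript with at least 99.6% of the count.

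Marker genes of the cell types that carry caveolae differed between MI and sham libraries beside the members. Of 6 endothelial markers, 5 were called lower after MI (median log2 change -1.20), and their summed level was 1392 to 1477 CPM in sham libraries and 451 to 721 CPM in MI libraries. Set against this sum, Cav1 was at 33.8 to 40.1 CPM per 100 CPM of endothelial markers after sham surgery and at 33.3 to 42.3 after MI, so the ranges overlapped. Cav2 was at 7.02 to 8.76 and 5.36 to 8.36 in the same measure, also with overlap. Cavin1 was at 21.8 to 23.4 after sham surgery and at 26.2 to 46.3 after MI, without overlap. Against fibroblast markers its direction was the opposite, at 29.3 to 32.6 CPM per 100 CPM after sham surgery and 5.69 to 12.8 after MI, also without overlap. Ehd4 was at 9.65 to 10.8 and 71.2 to 104 against endothelial markers, without overlap, and at 12.8 to 14.5 and 12.2 to 50.8 against fibroblast markers, with overlap. Smooth muscle and pericyte markers summed to 1296 to 1411 CPM and 496 to 683 CPM (2 of 6 lower), and adipocyte markers to 895 to 1467 CPM and 316 to 428 CPM (1 of 6 lower). Most of the smooth muscle and pericyte sum was Rgs5 (874.5 to 1102 CPM against 203 to 401 CPM), and most of the adipocyte sum was Fabp4 (835 to 1416 CPM against 269.7 to 379 CPM), which endothelial cells also express. The other 5 adipocyte markers were not called (-0.37 to 0.23). Their changes depended on fl/fl-MI 2, and without that library they were between -0.57 (Plin1) and -0.33 (Adipoq). Fibroblast markers summed to 1061 to 1094 CPM after sham surgery and 1481 to 3676 CPM after MI (5 of 6 higher). Macrophage markers summed to 381 to 409 CPM and 367 to 922 CPM (3 of 6 higher), mesothelial markers to 33.8 to 44.4 CPM and 34.4 to 177 CPM (3 of 5 higher). Cardiomyocyte markers summed to 24760 to 28090 CPM after sham surgery and 11480 to 27770 CPM after MI (2 of 6 higher, 2 lower). The sum of 27770 CPM was that of fl/fl-MI 2, and the other MI libraries, at 11480 to 22250 CPM, lay below all sham libraries. Over both genotypes the median log2 change of these markers was -0.40, and it was -0.8 with fl/fl-MI 2 left out. Actn2 and Ryr2 stayed above 0 without that library, at 0.62 and 0.52. Atrial markers summed to 135 to 594 CPM and 2547 to 19860 CPM (1 of 5 higher). The marker called was Nppa (106.5 to 504 CPM against 2520 to 11750 CPM), which ventricles also express under load, and outside fl/fl-MI 2 the other 4 atrial markers were at most 12.6 CPM after MI. Lung epithelial markers summed to 35.0 to 44.5 CPM and 15.1 to 88 CPM, of which 1 of 5 passed the filter. No marker on these lists was at 0 in all 8 libraries. Per 100 CPM of cardiomyocyte markers, Cav3 was at 0.0814 to 0.116 after sham surgery and 0.0772 to 0.122 after MI, with overlap. Cavin4 was at 0.128 to 0.147 after sham surgery, at 0.458 and 0.0981 in replicates 1 and 2 of fl/fl-MI, and at 0.380 and 0.455 in those of CKO-MI. The part of these cell types in the changes of the members was not tested.

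Other genes of caveolae and of related membrane domains were taken from lists drawn up with earlier results known. Of the EHD and PACSIN relatives, 3 of 4 were tested, and their median log2 change over both genotypes was -0.12. Pacsin2, the widely expressed PACSIN, was called higher (0.67, standard error 0.09, adjusted p = 0.0024 in edgeR), and Ehd1, an ATPase of endosomal recycling, was called lower (-0.54, standard error 0.14, adjusted p = 0.0202). Flot2, a flotillin of non-caveolar membrane domains, was called higher (0.77, adjusted p = 0.00259), and Flot1 was at 0.08 (adjusted p = 0.571). Of 3 dynamins, which cut vesicles from the membrane, 2 were tested and 0 were called by edgeR (Dnm1 at -0.16, Dnm2 at -0.15).

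Of 10 receptors, enzymes and transporters known from caveolae, 4 were called lower and 4 higher after MI (median -0.34). Nos3, the endothelial nitric oxide synthase that binds Cav1, was lower (-1.12, standard error 0.27, adjusted p = 0.0159 in edgeR), and at -1.52 without fl/fl-MI 2. Kcnj8 and Abcc9, which together form a potassium channel sensitive to ATP, were lower at -1.37 (adjusted p = 0.000612) and -0.48 (adjusted p = 0.0195). For Abcc9 the change was -0.99 in fl/fl (adjusted p = 0.013 in edgeR) and 0.03 in CKO (adjusted p = 0.903), and the library labelled CKO-MI 1 (189 CPM) lay within the sham range of 158 to 195 CPM. Cd36, a fatty acid transporter, was lower at -0.83 (adjusted p = 0.0042), with -1.23 in fl/fl (adjusted p = 0.00979) and -0.42 in CKO (adjusted p = 0.145). The genes called higher were Adcy5 (1.23), an adenylyl cyclase of cardiomyocytes, Insr (0.75), Src (0.96) and Plvap (1.38), which forms the diaphragm of endothelial caveolae. Plvap was at 2.37 in fl/fl (adjusted p = 0.0191 in edgeR) and 0.40 in CKO (adjusted p = 0.546), and CKO-Sham 1 (40.9 CPM) lay above CKO-MI 1 (29.6 CPM). As 0 of all genes were called in the interaction, these changes were not shown to differ between genotypes. Without fl/fl-MI 2 the list had 5 called lower, Adcy6 (-0.59, adjusted p = 0.00656) being the addition, and 4 higher. Fyn (-0.25) and Adcy6 (-0.43) were not called. Of 6 genes of membrane repair and T-tubules, Jph2 (1.0), Trim72 (0.89), Bves (0.69) and Popdc2 (0.58) were called higher, Dysf (-0.71) was called lower, and Bin1 was at 0.00 (median 0.63). Bves encodes a membrane protein that binds Cav3, and Trim72 and Dysf act in membrane resealing. Without fl/fl-MI 2 the counts called among the other related lists were as before, with Popdc2 at 0.38 and Ehd1 at -0.66.

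Across the 8 libraries, the pattern of log2 CPM most like that of Cav1 among 5524 genes with a mean of at least 5 FPKM was found for Sh3glb2 (Pearson r = 0.996), Gm13340, Emc9, mt-Co3 and Cyp4b1 (r = 0.992). Of the members, Cav2 had r = 0.98 with Cav1, Cavin1 0.948, Ehd2 0.875, Cavin2 0.842, Cav3 0.834, Pacsin3 0.419, Cavin3 -0.21, Cavin4 -0.57 and Ehd4 -0.94. The genes most like Cav3 were Preb, Puf60, Nos3, Zg16 and Crtc2, with r from 0.956 to 0.972. All of these values are descriptions. The 8 points share the split between MI and sham and the scaling of the libraries.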

How the data were processed

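Poly(A) RNA of 8 libraries was grouped by the deposited labels. For 33249 genes and 94947 transcripts the authors deposited whole-number estimated counts (expected counts, not normalized, about 4 per read pair) and FPKM, scaled to length and library size. The submitters' processing notes name FastQC and cutadapt 1.9, while the aligner, counter and strand setting are not given in the sources used here. Of the identifiers, 99.7% were in GENCODE M21 on GRCm38. Genes on the opposite strand of Cav1, Cav2, Cavin2 and Cavin3 had at most 0.142 FPKM, and that overlapping Pacsin3 was not analysed here. The count rows that named no gene numbered 0. Columns of values not used numbered 0.

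The filter was a mean of 0.5 FPKM, and the 14028 genes at or above it were tested with edgeR 4.0.16 (R 4.3.3), quasi-likelihood, TMM, all 8 libraries in 1 fit, Benjamini-Hochberg adjustment and a threshold of 0.05. DESeq2 1.42.0 and limma 3.58.1 on log2(FPKM + 1) were alternatives. Tests were tried on simulated data. Exact permutation tests used SciPy 1.17.1, on 10 genes (smallest p 0.0286 for 4 against 4). The members and gene lists were chosen with earlier results of these data known. All members are named, with every called gene of the related lists and up to 4 others a list.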

Additional observations from a re-analysis of the deposited data

How the results depend on the processing

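Cav1, Cav2, Cavin1, Ehd2 and Ehd4 kept their call in the comparison of MI with sham over both genotypes when each library was left out in turn, and 4 to 6 members were called lower and 1 to 3 higher. On log2(FPKM + 1) and log2(FPKM + 0.1) 2 were called lower, and on log2(TPM + 1) 0 were called lower and 6 higher. RLE scaling, scaling without mitochondrial genes and a mean FPKM of at least 5 each left 1 called higher, Ehd4, and not Cavin4. Directions reversed on log2(FPKM + 1), log2(FPKM + 0.1) and log2(TPM + 1) for Cav3 (0.026, 0.0276 and 0.58) and Pacsin3 (0.40, 0.42 and 0.97), and on log2(TPM + 1) for Cavin1 (0.50), Cavin2 (0.0658) and Ehd2 (0.45). In fl/fl, log2(TPM + 1) gave 0.69 for Cav3, 0.46 for Cavin1, 0.22 for Ehd2 and 0.87 for Pacsin3, and in CKO 0.54 for Cavin1 and 1.06 for Pacsin3. Directions not called on either scale also turned on log2(TPM + 1), for Cavin2 in fl/fl (0.49) and for Cav3 (0.47) and Ehd2 (0.68) in CKO, and on log2(FPKM + 1) for Cav3 (0.13) and Pacsin3 (0.30) in fl/fl and Ehd2 (0.11) and Pacsin3 (0.50) in CKO. The construction of these scales moves the median of all genes.

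In fl/fl, log2(FPKM + 1) and log2(FPKM + 0.1) gave 2 called lower, log2(TPM + 1) gave 0 lower and 4 higher, and only the libraries compared gave 1 lower and 0 higher. On log2(FPKM + 1) limma called 5255 of the 14028 genes tested in fl/fl in either direction. Where a library was left out, counts of members moved with the share of all genes called, as stated above. Leaving out each library gave 1 to 6 lower and 0 to 2 higher, with 1 lower and 0 higher without fl/fl-Sham 1 or fl/fl-Sham 2. In CKO, log2(TPM + 1) gave 0 lower, and leaving out each library gave 0 to 6 lower and 0 to 2 higher, with 0 of either without CKO-Sham 1. For the genotypes after MI and for the interaction, members were called only when fl/fl-MI 1 was left out, where fl/fl-MI 2 alone stands for its group. A lone library was taken to vary as the other groups do. Replicate numbers did not pair the libraries, since deviations of equal numbers correlated between -0.14 and 0.06. The replicate block left 1 member called higher over both genotypes in place of 2 and moved no other count of calls by over 1.5 times, with Cavin4 over both genotypes and Cavin1 within fl/fl and CKO losing their calls (adjusted p = 0.0531, 0.0503 and 0.054 in edgeR), and a crossed pairing, chosen after seeing the data, called 0 members between genotypes after MI. Of 1130 log2 fold changes of members under alternatives, 982 kept their direction and side of the threshold. That total includes the genotype comparisons and the interaction, where no member was called, so staying uncalled counted as kept. For MI over both genotypes, alternatives with all libraries gave 77 kept, 13 that lost their call, 9 reversed and 1 that gained a call. With 2 libraries a group, small differences between genotypes were not detectable.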
